A study of Mus musculus with 4 samples.

Results

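The 10 genes described here encode matrix metalloproteinases, namely Mmp2, Mmp3, Mmp9, Mmp10, Mmp11, Mmp12, Mmp13, Mmp14, Mmp19 and Mmp23. They were taken by gene name from the arrays, which measured 26683 genes, and were covered by 12 probes and 21 spots. RNA came from IMS/N cells, a line of hepatic stellate cells of normal 129/Sv mice that was immortalized with SV40 virus. The 4 groups, with 1 array each, received IL17A plus ADSC medium, IL17A alone, ADSC medium alone, or no treatment. IL17A was the recombinant murine cytokine. ADSC medium came from cultured stem cells of inguinal subcutaneous fat of male C57BL/6J mice aged 8 to 10 weeks. Doses and times are not given in the sources used here. Since each group was 1 array of 1 immortalized line, "higher" and "lower" compare 2 arrays, and no difference has a replicate check. Both arrays with ADSC medium shared slide 2, and those of IL17A alone and of untreated cells shared slide 1, so effects of medium and slide cannot be told apart.

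Matrix metalloproteinases are zinc-dependent endopeptidases that cut collagens, proteoglycans and other proteins outside the cell. Most are secreted as inactive pro-enzymes, are activated by proteases such as plasmin or furin, and are blocked by tissue inhibitors (TIMPs). In the liver, stellate cells are a known source of both the proteases and their inhibitors, and the balance between them bears on how scar matrix is built up and removed.

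Values below are log2 quantile-normalized signals. Levels of different probes are not comparable, so each gene is read only against itself. On each array 58.1% to 60.5% of the 43379 spots that are not controls cleared background. The technical SD of a difference came from probes with at least 5 spots well above background on all 4 arrays, matched by position between arrays. It was 0.213 for levels below 5, 0.121 up to 7 and 0.0643 beyond. With spots not matched it was 0.245, 0.143 and 0.0865. Either SD covers spots only, not cultures. Of 14 stellate cell and myofibroblast markers, 11 were well above background on at least 1 array and 8 on all 4, among them Acta2, Vim, Pdgfrb and Col1a1. Reln, Hand2 and Gfap were not well above background on any array, and Lrat, the retinol-esterifying enzyme of quiescent stellate cells, was so only with both treatments. Of all 26683 genes, 14480 were well above background on all 4 arrays. So were 4 of 6 cholangiocyte or mesothelial markers, among them Krt19 and Msln, while Epcam and Upk3b were on none. The counts were 2 of 5 for endothelial markers and 0 of 4 for hepatocyte markers on the array.

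The stromelysins Mmp3 and Mmp10 degrade proteoglycans, fibronectin and basement membrane proteins, and Mmp3 also activates other pro-enzymes of the family. Mmp3 had a level of 5.83 with IL17A plus ADSC medium, 8.27 with IL17A, 3.67 with ADSC medium and 6.51 in untreated cells, and all 4 values cleared background. It was highest with IL17A alone and lowest with medium alone, and its range of 4.60 was the widest of the members. IL17A gave a difference of 1.76 without medium, a 3.39-fold higher signal, and of 2.16 with medium, a 4.48-fold higher signal. The medium gave a difference of -2.84 without IL17A, a 7.17-fold lower signal, and of -2.44 with IL17A, a 5.42-fold lower signal. These 4 differences were far larger than their technical SDs of 0.064 to 0.21. With normexp background correction the IL17A difference with medium was 0.72, below 2-fold, and that without medium was 1.31. The medium differences were then smaller too, at -1.15 without IL17A and -1.74 with it. With both treatments Mmp3 was 1.60-fold below untreated cells (-0.68), and thus also below its level with IL17A alone. Ranked among genes well above background on both arrays, Mmp3 stood 10 of 14894 from the lowest for medium against untreated and 17 of 14693 for medium added to IL17A. For IL17A it stood 71 of 14708 from the highest without medium and 30 of 14920 with it. The Mmp3 probe lies on mm9 at chromosome 9, 7455751 to 7455810. No annotation of that build was used here, so exons and UTRs are not given for any probe.

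**Figure D1:**
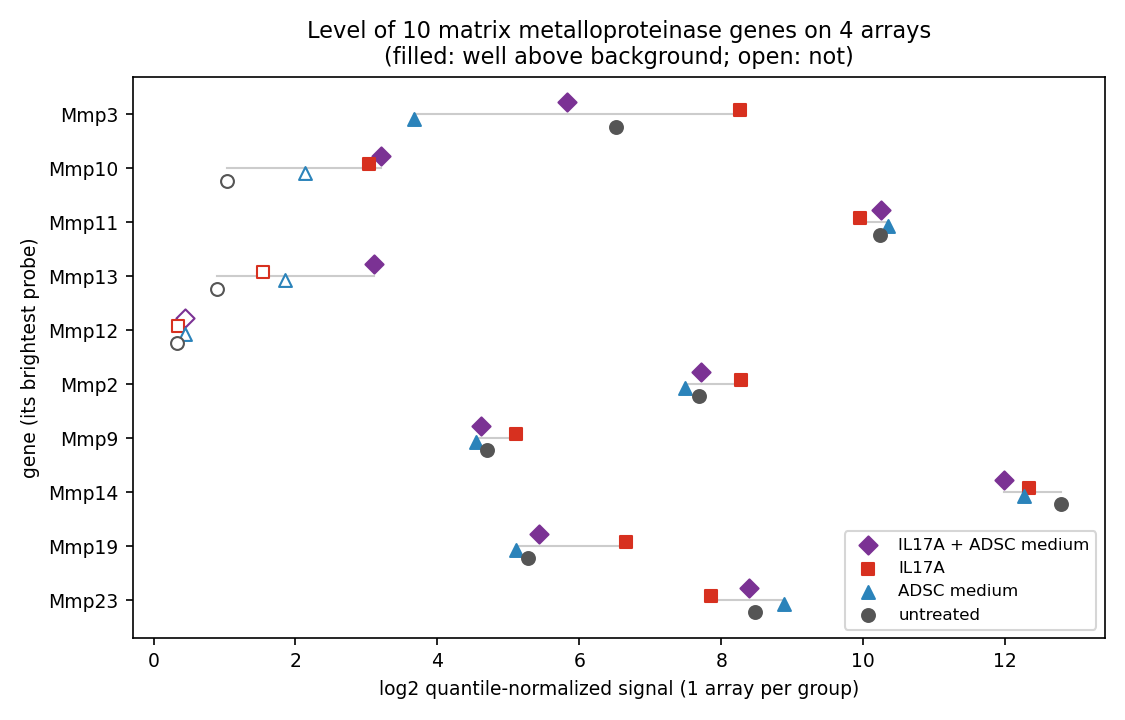
Level of each gene by its brightest probe on the arrays with IL17A plus ADSC medium (diamonds), IL17A (squares), ADSC medium (triangles) and no treatment (circles), on a log2 scale of quantile-normalized signal with 1 array per group; open symbols were not well above background. Mmp3 spans 4.60, from 3.67 with ADSC medium to 8.27 with IL17A, whereas Mmp11 spans 0.39 and Mmp12 lies below background on all arrays.

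Mmp10 was at the edge of detection. Its level was 3.21 with both treatments and 3.04 with IL17A, both well above background, against 2.13 with ADSC medium and 1.03 in untreated cells, where it was not. It was thus detected on both arrays with IL17A and on neither array without it. With the dim side set to the lowest value well above background on its array, Mmp10 was at least 1.62-fold higher with IL17A than untreated and at least 1.67-fold higher with both treatments than with medium alone. Neither bound reaches 2-fold. Adding medium to IL17A gave 0.18, within the technical SD of 0.21, so the lower level that Mmp3 had with added medium was not measured for Mmp10. The probe lies on mm9 at chromosome 9, 7510011 to 7510070.

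Mmp11, stromelysin 3, is activated inside the cell by furin and cleaves matrix proteins only weakly. It was the steadiest of the detected members. Its level was 10.25 with both treatments, 9.96 with IL17A, 10.35 with ADSC medium and 10.23 untreated, a range of 0.39. All 5 differences lay between -0.26 and 0.29. Its probe lies on mm9 at chromosome 10, 75386026 to 75386085, on the minus strand.

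Mmp13 is the main interstitial collagenase of the mouse. It was well above background only with both treatments, at 3.10, against 1.54 with IL17A, 1.85 with ADSC medium and 0.89 in untreated cells. The bounds were at least 1.28-fold over IL17A, at least 1.54-fold over medium and at least 1.69-fold over untreated cells, and none reached 2-fold. On that array Lrat at 3.84 and the leukocyte gene Ptprc at 3.73 were likewise above background there alone, each at 0.40 or less elsewhere, and the part of that array in the Mmp13 value was not tested. The probe lies on mm9 at chromosome 9, 7282762 to 7282821.

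The probe of Mmp12, an elastase known mainly from macrophages, was not well above background on any array. Its level was 0.44 with both treatments, 0.35 with IL17A, 0.45 with ADSC medium and 0.33 untreated, and no fold is given. Its position on mm9 is chromosome 9, 7354810 to 7355325, a span of 516 bases. Of 8 macrophage markers 6 were well above background on at least 1 array and 4 on all, but the defining markers Adgre1 and Clec4f were on none. Their summed signal was 872 with both treatments, 1350 with IL17A, 561 with ADSC medium and 555 untreated, most of it from Cd14.

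Mmp3, Mmp10, Mmp12 and Mmp13 lie in the cluster of metalloproteinase genes on chromosome 9. Upstream sequence is shown for them because promoters of this cluster are known to carry a binding site for AP-1, the Fos and Jun transcription factors. RefSeq promoter windows were matched for 7 of the 10 members, in 9 windows, with Mmp2, Mmp9 and Mmp19 having none. The 150 bases before the start are given 5′ to 3′ on GRCm38.p6, plus strand, with matches to TGANTCA in capitals. Mmp12 has 2 listed starts, and the second is printed.
Mmp3, chr9:7445672-7445821: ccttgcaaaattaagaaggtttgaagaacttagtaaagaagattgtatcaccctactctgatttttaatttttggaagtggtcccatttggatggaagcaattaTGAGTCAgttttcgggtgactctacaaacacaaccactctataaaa
Mmp10, chr9:7502192-7502341: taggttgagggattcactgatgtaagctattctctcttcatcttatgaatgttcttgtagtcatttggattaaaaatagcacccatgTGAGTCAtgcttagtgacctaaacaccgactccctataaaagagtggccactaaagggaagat
Mmp13, chr9:7272364-7272513: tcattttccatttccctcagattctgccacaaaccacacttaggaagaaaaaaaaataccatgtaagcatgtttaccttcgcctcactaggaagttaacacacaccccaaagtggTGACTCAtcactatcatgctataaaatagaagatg
Mmp12, chr9:7347224-7347373: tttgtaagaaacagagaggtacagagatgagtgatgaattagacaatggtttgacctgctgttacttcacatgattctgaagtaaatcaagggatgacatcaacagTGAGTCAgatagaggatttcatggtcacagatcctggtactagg
Mmp14, chr14:54431448-54431597: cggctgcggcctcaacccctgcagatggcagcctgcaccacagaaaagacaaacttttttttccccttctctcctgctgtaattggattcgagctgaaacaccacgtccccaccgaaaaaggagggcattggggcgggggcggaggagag
The motif, which reads the same way on both strands, began 46 bases before the start in Mmp3, 63 in Mmp10, 35 in Mmp13 and 44 at the second start of Mmp12. Each of these windows held 1 match in its 250 upstream bases, and those of Mmp11, Mmp14 and Mmp23 and the first start of Mmp12 held none. Of all 32851 RefSeq windows, 6.75% held the motif in those 250 bases. A C/EBP motif, TTGCNNAA on either strand, was found 148 bases before the start in Mmp3, 241 in Mmp10 and 39 at the first start of Mmp12, and in 9.56% of all windows. Mmp14 is printed as a strongly detected member without the motif.

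The gelatinases Mmp2 and Mmp9 cut denatured collagen and basement membrane collagen. Mmp2 had a level of 7.72 with both treatments, 8.28 with IL17A, 7.49 with ADSC medium and 7.68 in untreated cells. It was highest with IL17A alone, and the other 3 arrays lay within 0.23 of each other. Its IL17A difference was 0.60 without medium and 0.23 with it, and adding medium to IL17A gave -0.57, all below 2-fold but above the technical SD of 0.064. The probe lies on mm9 at chromosome 8, 95376840 to 95376899.

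Mmp9 had 2 probes, 1 with a single spot and 1 with 10 spots. The 10 spots averaged 3.20 ± 0.25 with both treatments, 4.21 ± 0.14 with IL17A, 3.42 ± 0.24 with ADSC medium and 3.42 ± 0.17 in untreated cells (SD over 10 spots of 1 array). Every spot on the IL17A array, from 3.95 to 4.45, was above every spot on the other arrays, whose highest was 3.78. The spots share 1 RNA sample per array and are not replicates of the condition. By this probe IL17A gave 0.79 without medium and -0.22 with it, and medium added to IL17A gave -1.01, a 2.01-fold lower signal. Before normalization its mean signal was 10.2 with both, 16.9 with IL17A, 9.74 with ADSC medium and 12.3 untreated. The negative sign with medium was thus not seen there, and the signals with IL17A and with both differed by less than 2-fold. This probe was not followed by itself under other normalizations. The brighter probe, with a single spot, read 4.61 with both, 5.11 with IL17A, 4.54 with ADSC medium and 4.70 untreated, and gave 0.42, 0.07 and -0.50 for the same comparisons. Both probes were highest with IL17A alone, but they differed in size, and only the 10-spot probe passed 2-fold, and did so only after normalization. They lie on mm9 chromosome 2, at 164780620 to 164780679 for the 10-spot probe and 164780303 to 164780362 for the other. Of 5 neutrophil markers on the array, Mpo and S100a8 were well above background on all 4, and Elane, S100a9 and Csf3r on none. The summed signal for the list was 84.5 with both treatments, 97.9 with IL17A, 101 with medium and 87.9 untreated.

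**Figure D2:**
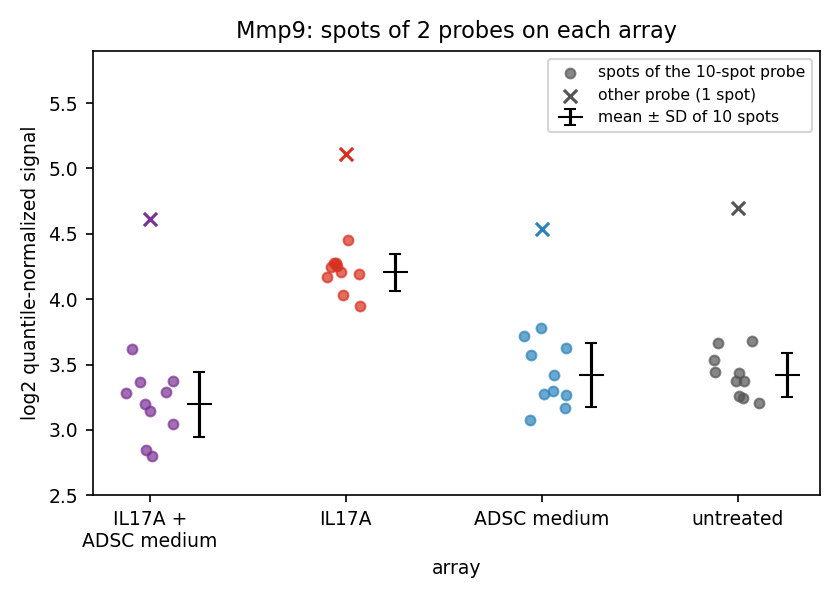
Log2 quantile-normalized signal of Mmp9 on each array, with the 10 spots of 1 probe as dots, their mean ± SD as black bars, and the single spot of the other probe as crosses. All 10 spots with IL17A alone lie at 3.95 or above, and no spot of that probe on another array exceeds 3.78.

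Mmp14, the membrane-type enzyme that activates the pro-enzyme of Mmp2, was strongly detected and highest in untreated cells. Its brighter probe read 11.98 with both treatments, 12.34 with IL17A, 12.27 with ADSC medium and 12.78 untreated. The other probe read 7.17, 7.44, 7.46 and 7.73 in the same order of arrays. Both probes put untreated cells highest and both treatments together lowest. The brighter probe gave -0.44 for IL17A and -0.51 for medium against untreated cells, and -0.79 for both, a 1.73-fold lower signal. The other gave -0.29, -0.27 and -0.56. None passed 2-fold, and all exceeded the technical SD of 0.064. The probes lie on mm9 chromosome 14, at 55059969 to 55060028 for the brighter and 55058775 to 55058834 for the other.

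Mmp19, which is active on basement membrane proteins, had a level of 5.43 with both treatments, 6.65 with IL17A, 5.10 with ADSC medium and 5.28 in untreated cells. It was high only on the IL17A array, and the other 3 lay within 0.33 of each other. IL17A gave 1.37 without medium, a 2.59-fold higher signal, and 0.33 with medium, a 1.26-fold higher signal. The difference between these responses was -1.04, with a technical SD of 0.17. Medium gave -1.22 in IL17A-treated cells, a 2.33-fold lower signal, and -0.18 in cells without IL17A. With normexp, the IL17A difference without medium was 0.74 and that for medium added to IL17A -0.67, both below 2-fold. For Mmp3 the difference between the IL17A responses was 0.40 (technical SD 0.22), and it ranged from -0.60 with normexp correction of the background to 0.60 with 75th percentile scaling, whereas that of Mmp19 lay between -1.25 and -0.62 under the settings tried. Both genes were thus lower when medium was added to IL17A, but Mmp3 was also lower with medium alone and Mmp19 was near its untreated level. The Mmp19 probe lies on mm9 at chromosome 10, 128236221 to 128236280.

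Mmp23, a membrane-anchored member processed by furin-like proteases, ran the other way. Its level was 8.39 with both treatments, 7.86 with IL17A, 8.88 with ADSC medium and 8.48 in untreated cells. IL17A gave -0.62 without medium and -0.50 with it, and medium gave 0.41 without IL17A and 0.53 with it. With both, the signal was 1.06-fold below untreated cells (-0.09). The probe lies on mm9 at chromosome 4, 155025377 to 155025436, on the minus strand.

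**Figure D3:**
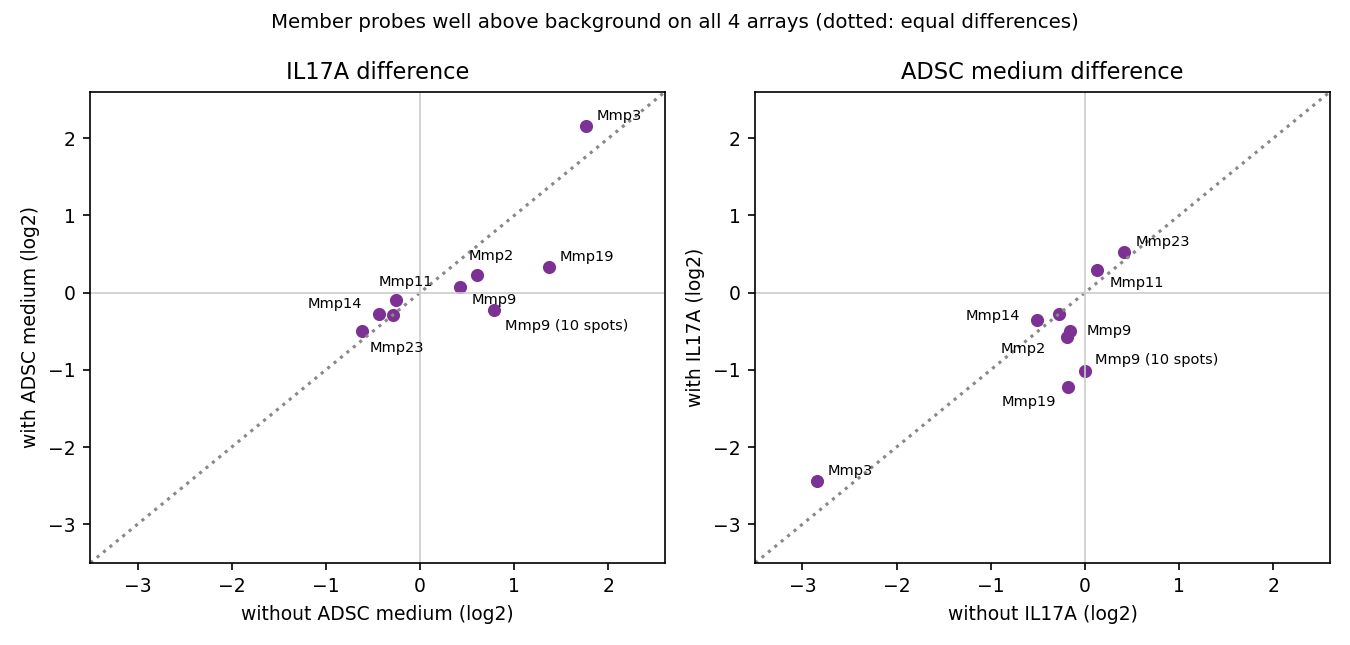
Left, IL17A difference with ADSC medium against that without; right, ADSC medium difference with IL17A against that without, as log2 differences of 2 arrays for the 9 member probes well above background on all 4 arrays (the unlabelled point is the second Mmp14 probe). Mmp3 lies 0.40 above the dotted line of equal differences in both plots, while Mmp19 and the 10-spot probe of Mmp9 lie below it.

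Across the family, IL17A against untreated cells gave at least 2-fold higher signal for 2 of 8 measured members, Mmp3 and Mmp19, and lower signal for 0. Of all 15869 genes measured, 2.17% were at least 2-fold higher and 2.29% lower, or 4.46% together. These were 345 higher and 363 lower genes. Scaling to the 75th percentile gave 263 higher and 533 lower. The balance turned with normexp, to 96 higher and 65 lower, with median scaling, to 411 and 324, and with RefSeq-matched probes only, to 296 and 262. It also turned with the mean of all probes (391 and 336) and at 4-fold (93 and 71). Genes well above background on all 4 arrays were near balance (205 and 202). The median difference of the 7 members detected on the pair of arrays was 0.42, against 0.003 over 14708 genes, with 4 above 0 and 3 below. In cells with medium, IL17A gave 1 of 9 measured members higher, Mmp3, and 0 lower, against 2.86% and 1.82% of 16068 genes, or 4.68% together. The gene counts were 460 and 292, with 722 and 171 for 75th percentile scaling, 76 and 21 for normexp and 402 and 326 for median scaling. With RefSeq-matched probes only, the balance turned to 203 higher and 251 lower. The member median was 0.07, against -0.032 over 14920 genes.

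ADSC medium against untreated cells gave 0 of 7 measured members higher and 1 lower, Mmp3, where 2.45% and 2.97% of 16102 genes were, or 5.42% together. The gene counts were 394 and 479, with 269 and 655 for 75th percentile scaling and 48 and 110 for normexp. The balance turned with median scaling, at 467 higher and 402 lower, and with RefSeq-matched probes, at 346 and 278. The member median was -0.18, against 0.043 over 14894 genes. In IL17A-treated cells, added medium gave 0 of 9 higher and 2 lower, Mmp3 and Mmp19, where 3.22% and 3.11% of 15876 genes were, or 6.33% together. The gene counts were 511 and 494, and 774 and 372 with 75th percentile scaling. More genes were lower than higher with normexp (73 higher and 121 lower), median scaling (444 and 585) and RefSeq-matched probes (227 and 329). The same held for the mean of all probes (474 and 529) and at 4-fold (51 and 77). The member median was -0.43 over 8 genes, against 0.019 over 14693. Against untreated cells, both treatments together gave 0 of 9 measured members past 2-fold in either direction, where 3.38% of 16241 genes were higher and 4.29% lower, or 7.67% together. The 7 members detected on that pair of arrays lay between -0.79 and 0.15. The members were picked with earlier results of these arrays known, so the counts describe them and do not set the family apart.

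**Figure D4:**
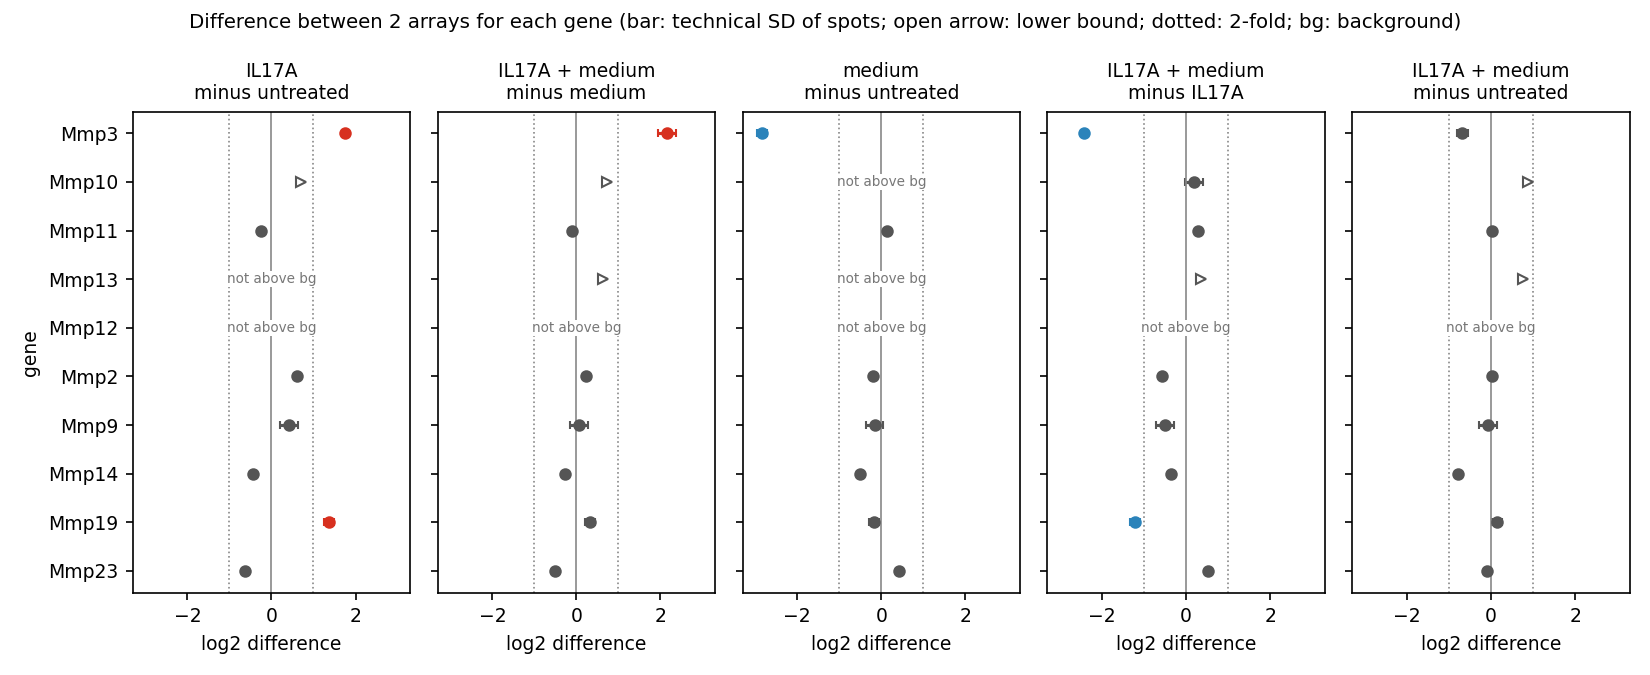
Log2 difference of each gene between the 2 arrays named above each panel, with the technical SD of spots as bars, dotted lines at 2-fold, open arrows for lower bounds where the dim array was not well above background, and colour for differences past 2-fold. Only Mmp3 and Mmp19 pass 2-fold, at 1.76 and 1.37 with IL17A and at -2.44 and -1.22 for medium added to IL17A, and no gene does so for both treatments against untreated cells.

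The 2 IL17A differences share no array and each lies within 1 slide, which allowed a fit of IL17A with slide as a block. The spread in this limma fit is how far the responses on both slides differ, with 1 residual degree of freedom per gene moderated over 15472 genes. Mmp3 had a difference of 1.96 (SE 0.20, Benjamini-Hochberg adjusted p = 0.0035) and was higher on both slides. Mmp23 at -0.56 (SE 0.099, adjusted p = 0.024) and Mmp14 at -0.36 (SE 0.061, adjusted p = 0.021) were lower on both slides. Mmp19 at 0.85 (adjusted p = 0.17), Mmp2 at 0.41 (adjusted p = 0.15), Mmp11 at -0.18 (adjusted p = 0.24) and Mmp9 at 0.24 (adjusted p = 0.75) did not pass an adjusted p of 0.05. No value is given for Mmp10, whose arrays without IL17A were not well above background. In this fit 2.54% of genes were higher and 3.79% lower at that threshold, or 6.33% together, and 1 culture per group still stands behind each array. No such fit exists for the medium.

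The authors' deposited table of 861 probes higher with IL17A than in untreated cells holds 3 of the 12 member probes, those of Mmp3, Mmp10 and Mmp19. In all, 41106 probes were read here. Since the members were picked with earlier results known, such counts do not set the family apart. The authors' deposited table of 1193 probes higher with IL17A than with IL17A plus ADSC medium also holds 3, those of Mmp3, Mmp19 and the single-spot probe of Mmp9. The 10-spot probe of Mmp9, which had the larger difference of -1.01 for added medium, is on neither. The sources used here do not state the threshold behind these tables.

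Mmp3, Mmp19 and Mmp23 were well above background on all 4 arrays and spanned at least 1 on the log2 scale, and for these the genes with the closest centred profile over the 4 arrays were sought among 11966 others. Nearest to Mmp3 were Hlf, a PAR bZIP transcription factor (Euclidean distance 0.583), and Dhrs3, a retinaldehyde reductase (0.649), followed by Slco4a1 (1.15), Gas1 (1.39) and Sod3 (1.47). Hlf was at 2.04 for IL17A and -2.48 for medium against untreated cells. Nearest to Mmp19 were Apon (0.104), the fatty acid binding protein gene Fabp4 (0.179), Mgst2 (0.190), Slco1a5 (0.193) and Ms4a4b (0.210). Nearest to Mmp23 were Nuak2 (0.0607), 2610035D17Rik (0.0669), Prokr1 (0.0683), Slc9a3r2 (0.0691) and Mbp (0.0739). Fabp4 is also on the list of 8 fat markers, of which 5 were well above background on all 4 arrays and Adipoq, Plin1 and Dpp4 on none.

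Of 13 other metalloproteinase genes 11 were on the array, and 4 or 5 were measured in each comparison. Mmp7, matrilysin, was well above background only with ADSC medium alone, at 4.13, against 0.57 with both treatments, 0.51 with IL17A and 0.50 untreated, which gave at least 3.44-fold over untreated cells. Mmp28, epilysin, was at least 2.03-fold higher with both treatments than with IL17A, where it was dim. The remaining measured genes of this list did not pass 2-fold in any of the 5 comparisons.

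Of 7 inhibitor genes 5 were measured in every comparison. Timp1 had a level of 15.88 with both treatments, 14.84 with IL17A, 15.61 with ADSC medium and 14.48 untreated. It was higher on both arrays with medium, by 1.13 without IL17A and 1.04 with it, and passed 2-fold with medium, while IL17A gave 0.36 and 0.27. Timp2, which also takes part in the activation of Mmp2 by Mmp14, read 15.04, 15.54, 15.52 and 16.24 on the same arrays. Like Mmp14 it was highest in untreated cells, with -0.70 for IL17A, -0.73 for medium and -1.21 for both. With medium, Timp1 was higher and Mmp3 lower, both with and without IL17A. No inhibitor passed 2-fold with IL17A, with or without medium.

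Among 8 genes of pro-enzyme activation, 7 or 8 were measured in each comparison. Serpinb2, an inhibitor of plasminogen activators, had a level of 8.22 with both treatments, 4.89 with IL17A, 6.52 with ADSC medium and 2.54 untreated, the last not well above background. It passed 2-fold in all 5 comparisons and was at least 51.5-fold higher with both than untreated. Plaur, the urokinase receptor, was 2.14-fold higher with both treatments than untreated. Plat, tissue plasminogen activator, just reached the 2-fold rule in that comparison, at 10.39 with both and 11.39 untreated, and its other probes gave -1.06 and, for the probe that was dim on 2 arrays, -0.13. Plg, plasminogen, was detected only in untreated cells, at 7.91, by 1 of its 2 probes, and the second probe was dim on all arrays.

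**Figure D5:**
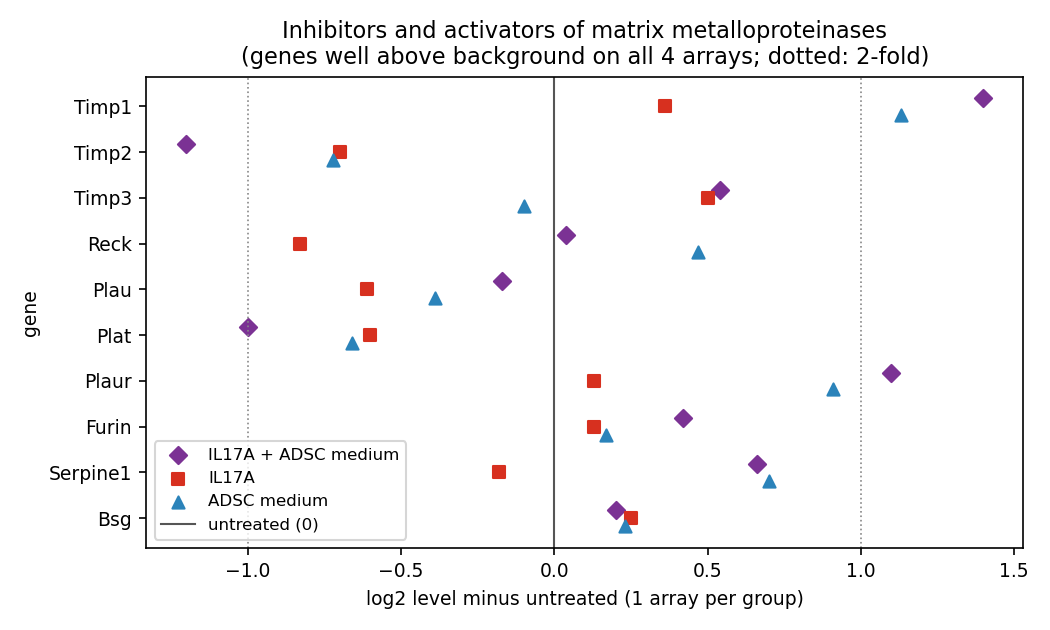
Level minus that of untreated cells, on the log2 scale, for inhibitors and activators well above background on all 4 arrays, with IL17A plus ADSC medium as diamonds, IL17A as squares and ADSC medium as triangles, 1 array each, and dotted lines at 2-fold. Timp1 is past 2-fold on both arrays with medium, and Timp2 is lower on all 3.

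Of 12 matrix substrates 10 were measured. With both treatments against untreated cells 4 were at least 2-fold lower, Col1a1 (-1.08), Col1a2 (-1.49), Col2a1 (-2.94, by 1 of 2 detected probes) and Col3a1 (-1.19), and 1 was higher, the proteoglycan gene Dcn (3.03). Of all genes measured there, 4.29% were lower and 3.38% higher. The list median was -0.71 there, against 0.031 over all genes. Against untreated cells, Dcn was at 4.12 with IL17A alone and -0.05 with medium alone. Medium added to IL17A gave -1.08 for Dcn. Col2a1 and Col3a1, by the same probes, were at 0.52 and 0.35 with IL17A alone and at -2.49 and -1.22 with medium alone. Col1a1 and Col1a2 were at -0.88 and -0.9 with IL17A alone and at -0.67 and -0.77 with medium alone. A less bright Col1a2 probe, well above background on 3 arrays, gave -1.81 and -1.15. Of 15 AP-1, Ets and NF-kB genes, all measured, 3 were higher and 0 lower with IL17A, Fos (1.19), Junb (1.45) and Nfkbiz (3.74). Of all genes, 2.17% were higher and 2.29% lower. Less bright probes of Cebpb (1.11) and Etv5 (-1.01) also passed 2-fold there. In cells with medium, IL17A gave 1 higher, Nfkbiz (3.60), and 0 lower, against 2.86% and 1.82%. Fos was then at -0.61, while less bright probes of Nfkb1 gave 1.35, 1.53 and 1.52. With medium against untreated cells 3 were higher and 0 lower, Fos (1.93), Fosb (1.78) and Junb (1.37), against 2.45% and 2.97% of all genes. A link between the RNA of these factors and that of the members was not tested. When medium was added to IL17A, 0 of the 15 passed 2-fold in either direction, where 6.33% of all genes did.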

How the data were processed

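Total RNA of 4 cultures was labelled with Cy3, per the labels' protocols, and hybridised to 1-colour Agilent mouse arrays read with Feature Extraction 12.1.1.1, with probe positions on mm9, per the file headers. Each deposited intensity is a linear signal from which background and a spatial trend had been removed array by array, per the file headers. Each deposited score is a 0 or 1 flag that marks a spot as well above background, as saturated or as an outlier. The submitters' processing notes name R 3.5.1, and per the series design text the authors applied quantile normalization.

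Here control and outlier spots were left out, log2 signals were quantile normalized over the 4 arrays, and spots of a probe were averaged. Probes were named through RefSeq accession, symbol or synonym, which changed none of the 12 member probes. A gene took its brightest probe. A gene was measured if well above background on at least 1 of 2 arrays, and counted when the log2 difference was 1 or more with the brighter array well above background. On a dim side, bounds use the array's lowest value well above background over all probes, or the probe's value where that is higher. Arrays limit the precision by their number. The members, lists and rules were chosen with earlier results of these data known. Named genes are the members, list genes past 2-fold in at least 1 comparison, the 5 nearest profiles per variable member and, to check the cells, genes of the marker lists. The block fit used limma 3.58.1 in R 4.3.3 with an intensity trend, other steps Python 3.11.15. The 2-fold rule and the block fit were run on simulated arrays with spot noise only and equal shifts on both IL17A arrays. That run cannot show how they perform with variation between cultures or slides. Adjusted p-values of the block fit are approximate, since the spread rests on 1 degree of freedom per gene.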

Additional observations from a re-analysis of the deposited data

Results flagged for a closer look

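The 10-spot probe of Mmp9 had IL17A differences of opposite sign, -0.22 with ADSC medium and 0.79 without it, where the technical SD of each was 0.067. Each value compares 2 arrays, so the change of sign was not tested over cultures. Before normalization the mean signal of the 10-spot probe was 10.2 with both treatments and 9.74 with medium, without the negative sign. The single-spot probe of the same gene gave 0.07 and 0.42. The difference between these 2 responses of the single-spot probe was -0.34, and 0.06 with 75th percentile scaling.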

How the results depend on the processing

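Each group has 1 array, so there were no replicates to pair or to leave out, and slide was the only block, fitted for IL17A. Of 338 member values under the alternatives, 254 moved by less than the technical SD of position-matched spots, 84 by more, and 0 of the called ones turned sign. Many of the 254 could not move. The filter on all 4 arrays and RefSeq-matched probes kept the same member probes and values. Dropping the filter on dim probes changes only values with a dim side, and the mean of probes only Mmp9 and Mmp14. The share is thus no measure of robustness. Mmp3 kept its direction in all 5 comparisons under all settings, but its IL17A difference with medium was 0.72 with normexp background correction, whose offset of 50 compresses low signals, against 2.16. The median of all measured genes was 0.21, -0.24, 0.27, -0.17 and 0.06 with median scaling, against 0.00, -0.03, 0.04, 0.02 and 0.03 with quantile normalization, in the order of comparisons used next. For IL17A against untreated, IL17A plus medium against medium, medium against untreated, IL17A plus medium against IL17A, and both against untreated, 708, 752, 873, 1005 and 1246 genes passed 2-fold in either direction. These became 161, 97, 158, 194 and 305 with normexp, 2065, 2061, 2297, 2491 and 2665 with no filter on dim probes, 1940, 2158, 2450, 2834 and 3207 at 1.5-fold, and 164, 129, 156, 128 and 261 at 4-fold. Well above background on all 4 arrays left 407, 434, 474 and 756 for the first 3 and the last, and RefSeq-matched probes 454 and 556 for the comparisons of both treatments with medium and with IL17A. Members past the rule were 2, 1, 1, 2 and 0. For the first they were 1 with normexp, 5 at 1.5-fold and 0 at 4-fold. For the second they were 2 with 75th percentile scaling, which added Mmp10, 0 with normexp, and 3 with no filter or at 1.5-fold, which added Mmp10 and Mmp13. For the third there were 2 with no filter, for medium added to IL17A 1 with normexp and at 4-fold, and for the last 2 with no filter and 4 at 1.5-fold. With 75th percentile scaling the first 4 member medians were 0.24, 0.25, -0.33 and -0.31. The first was 0.16 with normexp and 0.60 with the mean of probes. For medium added to IL17A it was -0.53 with median scaling, -0.28 with normexp and -0.50 under the filter on all 4 arrays. The cause of these shifts was not tested. Signal near background limits Mmp10, Mmp12 and Mmp13.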
